A study of Mus musculus with 4 samples.

Results

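The genes of glycolysis and of the response to low oxygen were followed in cultured neonatal mouse testis treated with WIN 18,446, an inhibitor of the retinaldehyde dehydrogenases that make retinoic acid. The set was a fixed list of 37 genes, 17 glycolytic enzymes and 20 other genes, the latter being glucose and lactate transporters, regulators of glycolytic flux, oxygen sensors and further targets of hypoxia. A gene entered with every probe set for which the annotation of the array gives its symbol alone. By this rule 34 of the 37 genes were found, with 76 probe sets, among 18194 genes named in this way on the whole array. Gpi1, Eno1 and Bnip3l have no probe set with 1 symbol here and were not analysed. Testes of 129 strain mice at 2 dpp (days post partum) were held for 24 h in organ culture, all with 10% fetal bovine serum at 37 °C and 5% CO2. The vehicle group (DMSO) and the WIN 18,446 group (1 µM) had 2 Affymetrix mouse expression arrays each. The labels do not say whether the 2 samples of a group came from separate animals or cultures, or how many testes went into each, so the p-values speak only of how far these samples differ from each other, and that spread may be technical.

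Glycolysis splits glucose into pyruvate in the cytosol, and lactate dehydrogenase turns pyruvate into lactate. When oxygen is short, the prolyl hydroxylases (Egln1, Egln2, Egln3) no longer mark the HIF alpha subunits for destruction, and HIF, paired with Arnt, raises transcription of glycolytic enzymes, glucose transporters, Vegfa and its own hydroxylases. In the testis, Sertoli cells are known to take up glucose and to hand lactate to germ cells.

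Levels are given on the log2 scale, on which 1 unit is a doubling, and differences are WIN 18,446 minus vehicle. The highest control probe set for bacterial transcripts read 2.22, and values at or near it are taken as background. A probe set was tested with limma when its mean over the 4 arrays was at least 5, and is called here when its Benjamini-Hochberg adjusted p over all 20895 probe sets tested was under 0.05. Each gene is represented by its tested probe set of highest mean. Of the 34 genes found, 32 were tested. Car9 was at background on all 4 arrays, at 2.02 in each, and Gapdh has only control probe sets, which were left out of the test. Car12 passed the level filter only through the treated arrays. Over the probe sets tested, the vehicle pair correlated at 0.992, the treated pair at 0.985 and arrays of different groups at 0.964 to 0.976. Array medians were between 3.72 and 3.83. All 10 Sertoli cell markers listed were tested, with means over each array of 11.47 to 11.97, and 7 of 8 germ cell markers and 4 of 6 Leydig cell markers passed the filter too.

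Promoter sequences of the members called are shown first, since HIF binds the short core ACGTG or GCGTG in hypoxia response elements and several of these genes are textbook HIF targets. They are the RefSeq windows of assembly GRCm38.p6, from 250 bases before to 50 after a transcription start, read in the direction of the gene, while the samples were of strain 129. Capitals mark each ACGTG or GCGTG on either strand (CACGT and CACGC are the reverse complements); the letters CACGTG hold ACGTG on both strands. Where a gene has several starts, the window with the most matches is shown. Ndrg1 and Slc2a3, also called, have no entry in the table used. Ldhb, the 1 member with probe sets called lower, is added for comparison.
Ldha (chr7:46845554-46845853, plus strand): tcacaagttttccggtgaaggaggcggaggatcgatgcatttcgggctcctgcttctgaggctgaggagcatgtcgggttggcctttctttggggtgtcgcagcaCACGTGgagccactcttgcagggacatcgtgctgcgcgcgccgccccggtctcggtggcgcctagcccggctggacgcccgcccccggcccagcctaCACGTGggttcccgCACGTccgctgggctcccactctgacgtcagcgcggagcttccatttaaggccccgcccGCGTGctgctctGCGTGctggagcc
Ldhb (chr6:142507908-142508207, minus strand): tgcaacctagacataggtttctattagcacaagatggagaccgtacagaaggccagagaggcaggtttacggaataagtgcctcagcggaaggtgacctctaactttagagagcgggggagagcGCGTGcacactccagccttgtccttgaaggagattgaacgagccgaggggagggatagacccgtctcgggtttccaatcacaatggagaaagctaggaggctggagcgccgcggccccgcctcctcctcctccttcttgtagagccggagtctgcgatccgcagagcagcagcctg
Tpi1 (chr6:124814109-124814408, minus strand): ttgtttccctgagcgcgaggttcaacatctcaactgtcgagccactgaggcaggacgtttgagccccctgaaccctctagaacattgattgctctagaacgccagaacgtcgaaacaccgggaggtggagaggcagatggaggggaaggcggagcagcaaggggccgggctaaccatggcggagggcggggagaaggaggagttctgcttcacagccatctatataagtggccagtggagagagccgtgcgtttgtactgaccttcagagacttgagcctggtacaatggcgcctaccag
Hk1 (chr10:62340372-62340671, minus strand): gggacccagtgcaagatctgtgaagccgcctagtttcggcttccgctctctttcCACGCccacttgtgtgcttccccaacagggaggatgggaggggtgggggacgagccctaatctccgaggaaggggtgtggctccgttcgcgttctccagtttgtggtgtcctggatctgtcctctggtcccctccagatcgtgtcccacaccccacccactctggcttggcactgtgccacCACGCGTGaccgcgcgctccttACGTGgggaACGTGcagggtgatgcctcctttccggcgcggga
Slc16a3 (chr11:120948817-120949116, plus strand): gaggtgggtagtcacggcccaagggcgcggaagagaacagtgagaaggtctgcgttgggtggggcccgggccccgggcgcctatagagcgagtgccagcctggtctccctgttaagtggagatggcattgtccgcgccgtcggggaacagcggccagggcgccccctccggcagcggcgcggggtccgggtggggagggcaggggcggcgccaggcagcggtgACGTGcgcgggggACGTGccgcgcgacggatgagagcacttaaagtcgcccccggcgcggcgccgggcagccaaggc
Bnip3 (chr7:138909457-138909756, minus strand): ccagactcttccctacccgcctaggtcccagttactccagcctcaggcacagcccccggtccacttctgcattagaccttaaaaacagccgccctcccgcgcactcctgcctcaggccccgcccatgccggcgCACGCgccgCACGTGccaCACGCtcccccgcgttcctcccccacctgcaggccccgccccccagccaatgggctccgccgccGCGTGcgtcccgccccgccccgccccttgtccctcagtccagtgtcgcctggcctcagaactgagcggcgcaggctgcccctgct
P4ha2 (chr11:54100674-54100973, plus strand): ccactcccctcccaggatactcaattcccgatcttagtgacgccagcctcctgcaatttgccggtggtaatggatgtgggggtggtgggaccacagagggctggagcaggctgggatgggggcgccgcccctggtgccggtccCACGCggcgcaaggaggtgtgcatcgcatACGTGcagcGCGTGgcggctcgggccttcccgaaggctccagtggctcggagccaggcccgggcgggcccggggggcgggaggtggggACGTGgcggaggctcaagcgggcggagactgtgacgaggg
Car12 (chr9:66713436-66713735, plus strand): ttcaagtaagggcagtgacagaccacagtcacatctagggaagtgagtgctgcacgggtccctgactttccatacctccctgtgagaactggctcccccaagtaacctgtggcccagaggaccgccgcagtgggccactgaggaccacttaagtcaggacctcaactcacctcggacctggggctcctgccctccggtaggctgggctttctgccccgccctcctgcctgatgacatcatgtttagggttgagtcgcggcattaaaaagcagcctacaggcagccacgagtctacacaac

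Counted on both strands, so that CACGTG counts on each, the window of Ldha shown held 7 matches, 5 of them ACGTG. The other Ldha window held 2, both GCGTG. Ldhb, with 1 window, held 1 match, a GCGTG. Bnip3 and Hk1 had 5 matches each, P4ha2 had 4 and Slc16a3 had 2, both ACGTG and both within 27 bases before the start. The other Hk1 window held 0. No match was found in the windows of Tpi1 and Car12. At least 1 window with either motif was present in 30 of the 34 members with a sequence (88.2%), against 46.7% of the 27025 genes in the table, and for ACGTG alone the numbers were 23 of 34 (67.6%) against 21.8%. Of the 7 called members with a sequence, Car12 among them, 5 held either motif (71.4%), a lower share than the 88.2% of all members. ACGTG was held by 5 of the 7 (71.4%). Counted by window, 39 of 52 member windows (75%) and 43.8% of all 32851 windows held either motif. Both motifs contain CG, and the member windows were richer in it, with 19.5 CG pairs per window against 12.4, and with 61.6% G or C against 53.8%. The members were listed for their known part in these pathways, so the share describes the list and is not independent evidence about it.

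Transcripts of 8 of 31 members tested rose with WIN 18,446: the glycolytic enzymes Hk1, Tpi1 and Ldha, the transporters Slc2a3 and Slc16a3, and the hypoxia targets Bnip3, Ndrg1 and P4ha2. None fell by the probe set of highest mean, and 23 were not called. Car12 is left out of this count, chosen after its values were seen, since it could pass the level filter only by being high on the treated arrays; with it limma called 9 of 32. Over all 10970 genes tested, 6.4% were called, 2.94% higher and 3.46% lower. With every tested probe set counted, 14 of the 58 member probe sets rose, 1 of them of Car12, and 3 fell, the latter all of Ldhb, against 2.27% and 2.91% of the 20895 probe sets (5.18% called in all). A positive difference of any size was seen in 25 of the 31 members without Car12, against 45.2% of all genes. Both treated arrays lay above both vehicle arrays in 22 of these 31, against 24.8% of all genes, below them in 3 (Ldhb, Eno2 and Pfkfb4), against 31.8%, and the groups overlapped in 6, while 56.6% of all genes had no overlap. The median difference was 0.18 for the 14 glycolytic enzymes tested and 0.51 for the 18 other members tested (0.45 without Car12), against -0.03 for all genes. The gap between these medians was not tested. With either vehicle array left out, the vehicle group is 1 array that is assumed to vary like the treated pair, and limma called 0 members (14 at an unadjusted p under 0.05 without array 1 and 18 without array 2) and 0 of all 20895 probe sets (2455 and 2820). The differences kept their direction in the 9 called members: Tpi1 was 0.42 and 0.46, Hk1 0.60 and 0.55, Ldha 0.33 and 0.42, and Ndrg1 0.88 and 1.51, without vehicle array 1 and 2 in turn. Limma called 3 members without treated array 1 (Car12 and Tpi1 higher, Ldhb lower) and 4 without treated array 2 (Car12, Ldha, P4ha2 and Tpi1). With no variance trend none of the 8 was called, and with no level filter 0 members were (19 at an unadjusted p under 0.05).

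The vehicle arrays themselves were not alike in these genes. Vehicle array 2 lay above vehicle array 1 in 25 of the 32 members (78.1%), and in 25 of the 31 without Car12 (80.6%), against 43.1% of all genes tested. Outside the set it did so in 26 of 35 other HIF pathway genes tested (74.3%) and in 7 of 21 other glycolysis genes tested (33.3%). The 18 members outside the glycolytic enzymes include Car12, and their median difference was 0.51 with it and 0.45 without it. Their median offset from each gene's own vehicle mean, Car12 included, was -0.09 and 0.09 with vehicle, and with WIN 18,446 it reached 0.46 and 0.56. For the 14 glycolytic enzymes it was -0.07 and 0.07, then 0.21 and 0.11. In both sets vehicle array 2 thus stood on the side of the treated arrays, short of either of them. The part of the difference between vehicle samples in the results was not tested.

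**Figure D1:**
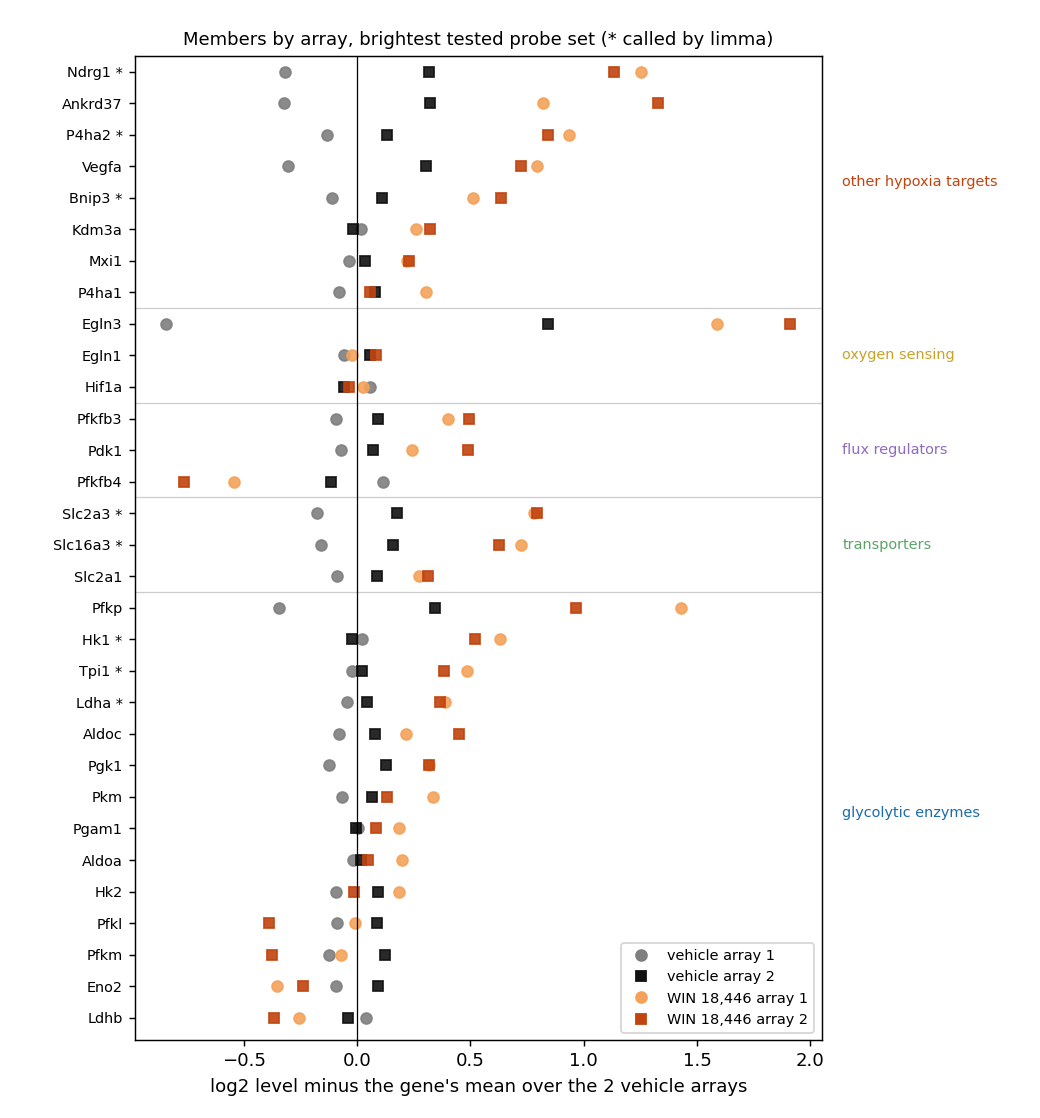
Log2 level of 31 members (brightest tested probe set, Car12 left out for scale) on each array, less the gene's vehicle mean; grey and black points are vehicle arrays 1 and 2, light and dark orange points WIN 18,446 arrays 1 and 2. Black squares lie between the grey circles and the orange points in most hypoxia targets, widest for Egln3, while Ldhb, Eno2 and Pfkfb4 have both orange points on the low side.

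Where glucose enters the pathway, 1 of the 2 hexokinases (Hk1) and 1 of the 2 glucose transporters (Slc2a3) rose. Hk1, the broadly expressed hexokinase that phosphorylates glucose, read 10.53 and 10.48 with vehicle and 11.14 and 11.03 with WIN 18,446. The treated arrays were both above the vehicle arrays, which lay within 0.05 of each other, and Hk1 rose by 0.58 (1.49-fold, SE 0.11, limma adjusted p = 0.049). With array medians made equal, Hk1 was not called (adjusted p = 0.0632). Its second probe set lay near background at 2.54 and 2.93 with vehicle and 4.11 and 3.55 with the inhibitor, and was not tested. Hk2, the inducible hexokinase, differed by 0.09 (SE 0.10, adjusted p = 0.668), and its arrays overlapped.

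Slc2a3, the high-affinity glucose transporter GLUT3, read 10.55 and 10.91 with vehicle and 11.51 and 11.53 with WIN 18,446, and rose 1.73-fold (log2 difference 0.79, SE 0.14, adjusted p = 0.0482). The suffix of this probe set marks probes shared by several transcripts. A second probe set of Slc2a3, with a suffix for probes that can match other transcripts, differed by 0.70 and was not called (adjusted p = 0.087). In addition, 2 more were at background. Slc2a1, the widespread glucose transporter GLUT1, differed by 0.29, 0.37 and 0.33 in its 3 probe sets, with adjusted p from 0.066 to 0.109. In each of these the treated arrays were above the vehicle arrays and the difference was not called. Slc16a3, the transporter MCT4 through which cells export lactate, read 12.09 and 12.41 with vehicle and 12.97 and 12.87 with the inhibitor. It rose 1.6-fold (0.67, SE 0.12, adjusted p = 0.0483), with no overlap between the groups. Slc16a1, a further lactate transporter that was not among the members, differed by 0.15 (adjusted p = 0.459).

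None of the 3 isoforms of phosphofructokinase, which commits the sugar to glycolysis, was called. Pfkp, the platelet isoform, read 10.05 and 10.73 with vehicle and 11.82 and 11.35 with WIN 18,446, a difference of 1.20 (2.29-fold, SE 0.27) that was not called (adjusted p = 0.0794), though it was with array medians made equal (adjusted p = 0.0332). It was the largest difference among the 14 enzymes tested, and vehicle array 2 was 0.69 above vehicle array 1. The liver isoform Pfkl differed by -0.20 and -0.21 in its tested probe sets (adjusted p = 0.495 and 0.422), and the muscle isoform Pfkm by -0.22 (adjusted p = 0.469). In Pfkl and Pfkm treated array 2 was the lowest array and treated array 1 was close to the vehicle arrays.

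Among the enzymes that follow, Tpi1, the isomerase that interconverts the triose phosphates, read 13.83 and 13.87 with vehicle and 14.33 and 14.23 with WIN 18,446. It rose by 0.44 (1.35-fold, SE 0.06, adjusted p = 0.0274). A second probe set of Tpi1 rose by 0.42 (adjusted p = 0.0242). The third, with a suffix for probes that can match other transcripts, differed by 0.35 and was not called (adjusted p = 0.056). All 3 had both treated arrays above both vehicle arrays. Pgk1, the kinase of the first ATP-forming step, depended on the probe set. Its brightest read 13.87 and 14.12 with vehicle and 14.32 and 14.31 with WIN 18,446 (difference 0.32, adjusted p = 0.13, not called). The other probe sets rose by 0.52 and 0.74 (adjusted p = 0.0288 and 0.0158). Both of these carry the suffix by which Affymetrix marks probes that can also match other transcripts, so they are uncertain as measures of Pgk1. Aldoa, an aldolase, differed by 0.12 to 0.18 in its 5 probe sets, all of which carry that suffix too. None of the 5 was called (adjusted p from 0.0879 to 0.711), and the groups overlapped in 1 of them. Aldoc, the brain isoform of aldolase, differed by 0.33 (adjusted p = 0.244), Pgam1, a mutase, by 0.13 (adjusted p = 0.258) and Pkm, the pyruvate kinase, by 0.23 (adjusted p = 0.213). Eno2, the neuronal enolase, differed by -0.29 (adjusted p = 0.274), with both treated arrays below both vehicle arrays. The 3 control probe sets of Gapdh, the dehydrogenase often used as a reference gene, were not tested. That of its 3' end read 15.24 and 15.25 with vehicle and 15.37 and 15.33 with WIN 18,446, and the differences of the 3 were 0.11, 0.10 and 0.13.

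At the last step the 2 lactate dehydrogenase genes differed in opposite directions. Ldha encodes the subunit that favours the making of lactate, and Ldhb the subunit that is abundant in oxidative tissue such as heart. Ldha read 14.21 and 14.30 with vehicle and 14.65 and 14.62 with WIN 18,446, and rose by 0.38 (1.3-fold, SE 0.05, adjusted p = 0.0289); with array medians made equal it was not called (adjusted p = 0.0577). The probe set of Ldhb of highest mean read 14.94 and 14.86 with vehicle and 14.64 and 14.54 with the inhibitor, a difference of -0.31 (SE 0.06) that missed the threshold (adjusted p = 0.0534). In all 4 Ldhb probe sets both treated arrays lay below both vehicle arrays. The other 3 fell by 0.43, 0.49 and 0.55 on the log2 scale (adjusted p = 0.026, 0.0235 and 0.0159); the first 2 of these carry the same suffix for probes that can match other transcripts, the third does not. Set against Ldhb within each array, Ldha shifted by 0.69 to 0.92 towards Ldha over the 4 Ldhb probe sets. An exact two-sided permutation test of this shift gave p = 0.333, the smallest that 2 arrays against 2 allow. Vehicle array 2 was above vehicle array 1 in Ldha and below it in each Ldhb probe set. Ldhc, the germ cell lactate dehydrogenase, differed by -0.44 (adjusted p = 0.422).

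**Figure D2:**
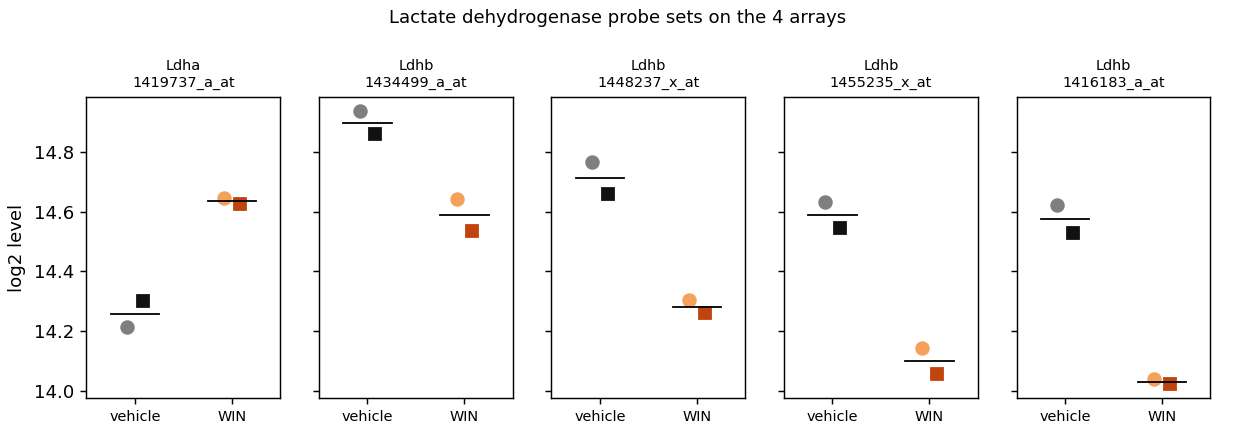
Log2 level of the Ldha probe set and the 4 Ldhb probe sets on the vehicle arrays (grey circle array 1, black square array 2) and the WIN 18,446 arrays (light circle array 1, dark square array 2); lines are group means over 2 arrays. Ldha is higher and each Ldhb probe set lower on both treated arrays; heights of different probe sets are not comparable.

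Regulators of flux were mixed, and none was called by the probe set of highest mean. Pdk1, a kinase that inactivates pyruvate dehydrogenase, had positive differences in all 4 probe sets, from 0.34 to 0.53. The brightest read 12.88 and 13.03 with vehicle and 13.20 and 13.44 with WIN 18,446 (difference 0.37, adjusted p = 0.129). Only the second, at 11.64 and 11.64 with vehicle and 12.18 and 12.17 with the inhibitor, rose past the threshold (0.53, SE 0.08, adjusted p = 0.0301). Pfkfb3 and Pfkfb4 are bifunctional enzymes that set the level of fructose 2,6-bisphosphate, the activator of phosphofructokinase. Pfkfb3 differed by 0.45 (adjusted p = 0.093) and Pfkfb4 by -0.65, from 6.68 and 6.45 to 6.03 and 5.80 (adjusted p = 0.187). The groups did not overlap in either gene, as in 56.6% of all genes tested.

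None of the 3 oxygen sensing genes was called. Egln3, a prolyl hydroxylase that hypoxia itself induces, read 8.50 and 10.18 with vehicle and 10.93 and 11.25 with WIN 18,446. The difference was 1.75 (3.36-fold, SE 0.54) and was not called (adjusted p = 0.15), and the 2 vehicle arrays differed by 1.68, nearly as much. Its second probe set read 8.38 and 9.39, then 9.91 and 10.13 (1.14, adjusted p = 0.144). Egln1, the main prolyl hydroxylase, differed by 0.03 (SE 0.08, adjusted p = 0.849), and its direction turned once the arrays were centred on a common median, and without vehicle array 1 or treated array 2. The brightest probe set of Hif1a, the HIF subunit that low oxygen stabilises as a protein, differed by -0.0045 (SE 0.07, adjusted p = 0.981), and 2 others by -0.05. Its 4 arrays overlapped in each tested probe set.

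Of the 8 further hypoxia targets tested besides Car12, 3 rose and 5 were not called, against 2.94% of all genes called higher. All 8 differences were positive, against 45.2% of all genes, and both treated arrays were above both vehicle arrays in 7, against 24.8%. Ndrg1, a stress-responsive protein long used as a hypoxia marker, read 11.06 and 11.69 with vehicle and 12.63 and 12.51 with WIN 18,446. It rose 2.29-fold (1.19, SE 0.21, adjusted p = 0.0464), and the treated arrays were at least 0.82 above the vehicle arrays. Another probe set rose by 1.36 (adjusted p = 0.0302) and the third differed by 1.46 (adjusted p = 0.0575). Both called probe sets carry a suffix for probes that other transcripts can share, and the third carries none. Bnip3, a mitochondrial protein that directs mitophagy, read 13.19 and 13.40, then 13.81 and 13.93. It rose by 0.57 (1.49-fold, SE 0.09, adjusted p = 0.0396). P4ha2, a catalytic subunit of the collagen prolyl hydroxylase, read 10.24 and 10.50 with vehicle and 11.30 and 11.21 with the inhibitor, and rose 1.85-fold (0.89, SE 0.13, adjusted p = 0.0309). Its relative P4ha1 differed by 0.18 (adjusted p = 0.431), with overlapping groups.

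The carbonic anhydrase Car12, a membrane enzyme that helps to set the pH outside the cell, read 3.08 and 2.75 with vehicle, not far above background, and 7.15 and 7.69 with WIN 18,446. The log2 difference was 4.50 (SE 0.30); it is given as a description, since the probe set was tested only because it was high on the treated arrays, and a fold against so low a level is imprecise. The vehicle arrays ran in the opposite order here, array 1 above array 2. Its other 2 probe sets lay between 2.04 and 2.22 on every array, so 1 of 3 probe sets showed this difference. Car9, the carbonic anhydrase most often used as a hypoxia marker, was at background in both groups.

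Ankrd37, a small ankyrin repeat protein known as a HIF target, read 10.96 and 11.60 with vehicle and 12.10 and 12.61 with WIN 18,446. The difference of 1.07 (2.1-fold, SE 0.27) was not called (adjusted p = 0.0941). Vegfa, the growth factor of blood vessels, read 10.16 and 10.77, then 11.26 and 11.19, a difference of 0.76 (adjusted p = 0.124). Its second probe set read 7.75 and 8.49, then 8.05 and 9.30 (0.55, adjusted p = 0.566), with overlapping groups. Kdm3a, a histone demethylase, differed by 0.29 (adjusted p = 0.0754) and Mxi1, an antagonist of Myc, by 0.23 (adjusted p = 0.14). In Ankrd37, Vegfa and Ndrg1 vehicle array 2 was 0.65, 0.61 and 0.63 above vehicle array 1.

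**Figure D3:**
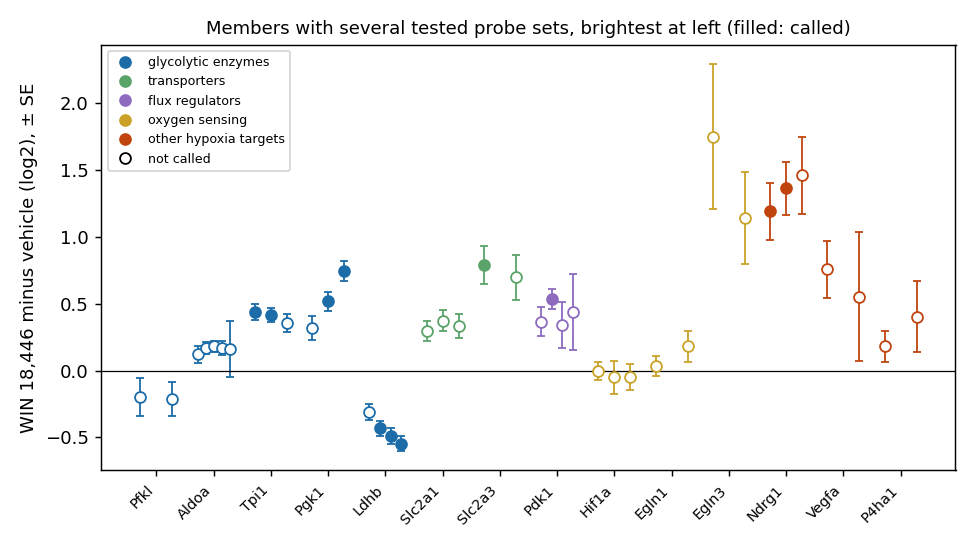
Difference of WIN 18,446 minus vehicle (log2, points with SE bars from limma) for every tested probe set of the members that have more than 1, brightest at the left of each gene; filled points were called. Probe sets of a gene lie on the same side of 0 in all genes shown, with the 4 Ldhb probe sets from -0.31 to -0.55 and the 3 of Pgk1 from 0.32 to 0.74.

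Further genes of the same pathways, outside the set, were counted in the same way. Of 37 other glycolysis genes 21 were tested; 1 rose, 0 fell and 20 were not called, against 2.94% and 3.46% of all genes called higher and lower, with a median difference of 0.02. The 1 called was Pck2, the mitochondrial enzyme that makes phosphoenolpyruvate, at 11.41 and 11.60 with vehicle and 12.28 and 12.23 with WIN 18,446 (0.75, SE 0.10, adjusted p = 0.0262), while its second probe set differed by 1.02 and was not called (adjusted p = 0.159). The pyruvate dehydrogenase subunits Pdha1 and Pdhb differed by 0.0052 and -0.17, and the other kinases of that enzyme, Pdk2, Pdk3 and Pdk4, by -0.13, 0.12 and 0.31, none called. The sperm-specific enzymes Gapdhs and Pgk2 stood at background, from 2.03 to 2.23. Both treated arrays were above both vehicle arrays in 8 of the 21 (38.1%), against 24.8% of all genes.

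Of 40 other genes of the HIF pathway 35 were tested; 1 rose, 2 fell and 32 were not called, with a median of 0.06, and both treated arrays were above both vehicle arrays in 10 (28.6%). The shares over all genes were 2.94% called higher, 3.46% called lower and 24.8% with both treated arrays above, so by these counts the list lay near the background. Other counts were higher. With every tested probe set counted, 4 of 56 rose and 2 fell, against 2.27% and 2.91% of the 20895 probe sets. An unadjusted limma p under 0.05 was found for 14 of the 35, against 2746 of all 10970 genes. Differences of at least 0.5 in either direction were seen in 10 of the 35, against 1756 of all genes. Ak4, a mitochondrial adenylate kinase and HIF target, read 12.83 and 13.07 with vehicle and 13.48 and 13.50 with WIN 18,446, and rose by 0.54 (adjusted p = 0.0437). Its second tested probe set rose by 0.77 (adjusted p = 0.0311). Ero1a, an oxidase of the endoplasmic reticulum, differed by 0.77 in its brightest probe set (adjusted p = 0.0755) and rose in the other 2 by 0.89 and 1.64 (adjusted p = 0.0487 and 0.0424). Bhlhe40 (0.52), Fam162a (0.50) and Higd1a (0.20), also HIF targets, had adjusted p-values of 0.0574, 0.0953 and 0.096. Edn1 (-0.62) and Tek (-1.17), on the same list, went the other way, with adjusted p-values of 0.0871 and 0.0509. In both, the treated arrays lay below the vehicle arrays. All of these genes were named after their values were seen. Ddit4 (-0.01), Angptl4 (-0.05) and Stc1 (0.13), targets too and likewise named with values known, differed little, with adjusted p from 0.627 to 0.92.

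The genes of this list that fell were both HIF alpha subunits. Epas1, which encodes HIF-2 alpha, read 13.17 and 13.18 with vehicle and 11.78 and 11.61 with WIN 18,446, and fell (log2 difference -1.48, SE 0.09, adjusted p = 0.00612). Hif3a, which encodes a subunit that can restrain the others, read 10.47 and 10.47, then 9.69 and 9.46, and was lower by a log2 difference of -0.89 (SE 0.14, called, adjusted p = 0.0338). In both genes the vehicle arrays lay close together and the treated arrays well below them. Arnt, the shared partner subunit, differed by -0.12 (adjusted p = 0.461), with a positive difference in 1 of its 3 tested probe sets. Vhl, which marks the hydroxylated subunits for destruction, differed by -0.02 (adjusted p = 0.874). For Hif1an, the asparagine hydroxylase, the difference was 0.11 (adjusted p = 0.744), and for Egln2, the third prolyl hydroxylase, it was -0.44 (adjusted p = 0.17).

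**Figure D4:**
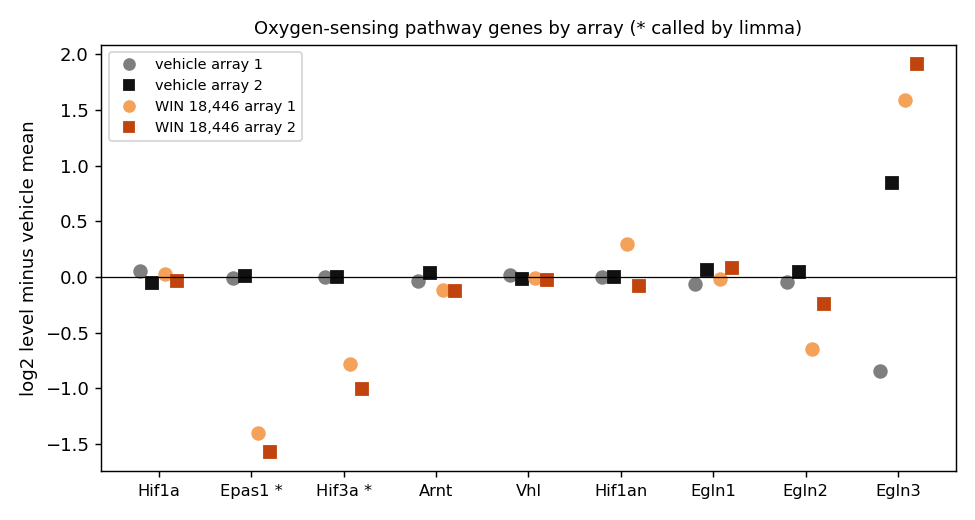
Log2 level on each array, less the gene's vehicle mean, for the HIF subunits Hif1a, Epas1, Hif3a and Arnt and for Vhl, Hif1an and the prolyl hydroxylases; colours as vehicle arrays 1 and 2 (grey, black) and WIN 18,446 arrays 1 and 2 (light, dark orange). Epas1 and Hif3a lie below both vehicle arrays on both treated arrays, Egln3 lies above them with a wide gap between its vehicle arrays, and the Hif1a points lie together.

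Epas1 is known to be abundant in the cells of blood vessels, and markers of these cells were lower on the same arrays. All 5 tested of 7 endothelial markers (Cdh5, Emcn, Esam, Robo4 and Tek) had both treated arrays below both vehicle arrays, against 31.8% of all genes. Robo4 fell (-1.01, adjusted p = 0.0435) and 4 were not called, where 3.46% of all genes were called lower. Their log2 levels summed to 42.13 and 43.22 with vehicle and to 38.23 and 38.01 with WIN 18,446. Pecam1 and Kdr had means under 5 and were not tested, Kdr being at background on 3 arrays. Flt1, a receptor for Vegfa on the HIF list, differed by -1.06 (adjusted p = 0.12). In bulk tissue fewer cells of a type and less RNA per cell cannot be told apart, and the part of endothelial or other cells in the fall of Epas1 was not tested. Of the 10 Sertoli cell markers 4 fell (Cldn11, Sox9, Dhh and Wt1), 0 rose and 6 were not called. Both treated arrays lay below both vehicle arrays in 7 of the 10 and above them in 2. The largest difference was that of Rhox5 (-1.79, adjusted p = 0.0577, not called). Amh, also a Sertoli cell gene, went the other way by 1.25, with both treated arrays above both vehicle arrays (adjusted p = 0.0575), and 3 of the 10 differences were positive. The 10 had summed log2 levels of 119.70 and 119.00 with vehicle and 114.70 and 114.99 with WIN 18,446; none of them was at background. Other lists had lower members too. Of 4 peritubular markers tested Des fell (-1.47, adjusted p = 0.0349), and all 4 differences were negative. Those of 4 Leydig cell markers were negative as well, none called, while 6013 of all 10970 genes had a negative difference. Both treated arrays lay below both vehicle arrays in 3 of the 4 peritubular and 3 of the 4 Leydig cell markers. Among 7 germ cell markers they lay below in 2 and above in 3. Of 7 germ cell markers tested Sall4 and Tdrd9 fell (-0.60 and -1.02, adjusted p = 0.0157 and 0.0301) and 4 differences were positive. Of the macrophage markers 2 were tested and 0 called, and the 1 erythroid marker tested, Hbb-b2, differed by -1.42 (adjusted p = 0.0618). Sertoli cells are the main known source of lactate in the testis, and the part of their markers in the differences of Ldha, Ldhb and the transporters was not tested.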

How the data were processed

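What the authors deposited is a table of log2 expression values, with 45101 probe sets on each of the 4 arrays. RMA and GCRMA are both named in the submitters' processing notes, with no version and no word on which was used; that the scale is log2 was judged from the values, the highest being 16.24. About 100 ng of RNA per sample was amplified, per the labels' protocols. The 64 control probe sets were left out, and 20895 others (46.4%) with a mean of at least 5 were tested. Gene symbols are those of the array's GEO annotation; for 18566 of the 18601 tested probe sets with a single symbol, the gene ID was present in RefSeq's gene table. Limma 3.58.1 under R 4.3.3 fitted both groups (lmFit, eBayes with a variance trend, 2 residual and 3.19 prior degrees of freedom, two-sided, Benjamini-Hochberg over all probe sets tested). The members and lists were chosen with earlier results of these data known. Values on every array are given for called members, for those that differed by at least 0.5 and for probe sets of a gene that disagree in sign; other pathway genes are named where called, with the HIF regulators always given. Further genes named were chosen with their values known. Simulations of this comparison over 20895 probe sets changed 200 of them per run, with noise from the fitted variances. They recovered 27.1% of differences of 0.5 log2 units, 68.2% of 1, 97% of 2 and 99.8% of 4. Of the calls 9.97% were false, above the adjusted p threshold of 0.05. The data had 1083 probe sets called, so these shares may not hold there. The number of arrays limits the precision. Alternatives were other level filters, rescalings, variance models, a replicate block, each array left out, other probe set rules and an adjusted p under 0.10.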

Additional observations from a re-analysis of the deposited data

How the results depend on the processing

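The limma counts were 1083 of all probe sets, 9 members, 17 member probe sets and 4 other pathway genes. In the same order they were 3, 0, 0 and 0 with no level filter (5250, 19, 37 and 14 at an unadjusted p under 0.05), 372, 1, 1 and 1 with no variance trend, and 2216, 15, 28 and 10 at an adjusted p under 0.10. Leaving out 1 array at a time gave 0 to 1398, 0 to 4, 0 to 12 and 0 to 5; each count was 0 without either vehicle array. Other pathway genes came to 7 with a mean of at least 7. The replicate block gave 1467, 12, 25 and 7, but same-numbered samples did not deviate together (r = 0.01 over probe sets), so the numbers are no pairing. The other level filter, both rescalings and robust moderation kept all 4 counts within 1.5 times, but with equal array medians the 8 members called shared 7 with the 9, losing Hk1 and Ldha and adding Pfkp. Without Car12 the members called were 8 of 31. Equal array medians changed the split over all probe sets from 475 higher and 608 lower to 491 and 754. The median of the 14 glycolytic enzymes tested stayed positive, from 0.11 to 0.24 with 1 array left out. That of the 18 other members tested, Car12 included, went from 0.41 to 0.61. The second Vegfa probe set reversed to -0.074 without treated array 2 and was 1.18 without treated array 1. Of 336 values for 26 named probe sets, 234 kept their direction and side of the threshold, 87 lost the call, 14 gained it and 1 reversed. Only the 17 probe sets called could lose a call, so the 234 include many that were not called under either setting. All 17 lost it with no level filter, and 16 with no variance trend. The cause of these shifts was not tested. With 2 arrays a group, small differences are often missed, and probe sets near background carry little.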
